A study of Rattus norvegicus with 24 samples.

Results

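Genes of motile cilia and of the intraflagellar transport machinery were followed in 6 brain regions of rats given MK-801 (dizocilpine), which blocks the channel of the NMDA type of glutamate receptor. The genes were taken by name from the array's own gene column: axonemal dynein heavy and intermediate chains (Dnah, Dnai), intraflagellar transport proteins (Ift), Bardet-Biedl syndrome proteins (Bbs), tektins (Tekt), radial spoke proteins (Rsph), and Dynlrb2, Ccdc37, Foxj1 and Spag6. A probe had to be well above background in the same RNA on both arrays of at least 1 region and dose. Of 41012 probes, 50 carried such a name and 37 of these passed, for 26 genes. The array held 35524 gene names before any signal filter, and the brightest probe of 28419 was measured in at least 1 combination. No Rsph probe was among them; Rsph1 and Rsph4a are on the array under other names. Members were thus selected on the signal flags of the treated or saline RNA, so a probe seen in few regions could enter through its brightest group.

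All rats were male Wistar animals, 9 weeks old by the sample labels and 10 weeks by the design text. They were killed 40 min after an intraperitoneal injection of saline, 0.08 mg/kg MK-801 (low dose) or 0.16 mg/kg MK-801 (high dose). The study used 9 rats, 3 of them given saline, and the brains were dissected into cortex, hippocampus, amygdala, ventral striatum, hypothalamus and midbrain. Each of the 24 arrays set RNA of treated rats against saline RNA of the same region. Every one of the 12 combinations of region and dose was measured on 2 arrays of opposite dye, 1 with the treated RNA in Cy5 and 1 with it in Cy3. The labels do not say how many rats went into an extract or whether the arrays of a pair held different extracts. A pair was therefore counted as 1 sample, and p-values measure the spread between regions, which may come from the same animals. Both doses were compared with saline RNA of the same group of rats, so their ratios are not independent.

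Motile cilia beat by sliding of paired microtubules, driven by dynein arms that are built from heavy, intermediate and light chains. In the brain they stand on the ependymal cells that line the ventricles and move cerebrospinal fluid, and Foxj1 is the transcription factor that switches on their genes. Intraflagellar transport particles and the BBSome carry cargo along motile cilia and also along the single immotile primary cilium that neurons and astrocytes bear, so their genes are expressed far more widely.

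RFX factors, which act with Foxj1 on cilia genes, bind the X-box, whose half-site is GTTGCC. Windows from 250 bases before to 50 bases after the annotated start were available from RefSeq (GRCr8) for 19 of the 26 genes, using the window listed first for each gene. The half-site stood on either strand in 10 of the 19 windows (52.6%), in Bbs1, Bbs2, Bbs5, Dnah11, Dnai2, Ift88, Spag6, Tekt1, Tekt2 and Tekt4, against 3343 of 27457 genes (12.2%). A full X-box of 2 inverted half-sites (GTTNCC, then 0 to 3 bases, then GGNAAC) was in none of the 19 and in 0.841% of all windows. Apart from the longer run below, looser forms of the X-box were not searched. The counts therefore do not show that a window lacks an X-box. The forkhead core TGTTTAC was in 1 of 19 (Tekt3) against 3.76%, and CCAAT in 7 of 19 (36.8%) against 37.7%. A longer run, GTTGCTAGGCAAC, was noticed in the Tekt2 and Dnai2 windows and then searched in all windows. It was in 17 windows (0.0619%), 2 of them of these genes, and it contains the half-site on the minus strand. The 150 bases before the start are given here, with the half-site or the longer run in capitals, for 6 genes that carry it before or across the start and were measured in at least 11 of the 12 combinations, together with Dynlrb2, which lacks it but had the lowest regional ratio. In Tekt4 the last base of the match lies past the printed stretch.
Tekt4, chr10:14992134-14992283, plus strand: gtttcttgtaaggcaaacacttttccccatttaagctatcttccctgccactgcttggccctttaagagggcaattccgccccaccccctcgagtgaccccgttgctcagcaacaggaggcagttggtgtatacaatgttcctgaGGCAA
Tekt2, chr5:143907725-143907874, minus strand: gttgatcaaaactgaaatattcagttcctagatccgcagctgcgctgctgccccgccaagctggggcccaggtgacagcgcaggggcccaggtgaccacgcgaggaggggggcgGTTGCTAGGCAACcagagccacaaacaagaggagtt
Tekt1, chr10:57479122-57479271, minus strand: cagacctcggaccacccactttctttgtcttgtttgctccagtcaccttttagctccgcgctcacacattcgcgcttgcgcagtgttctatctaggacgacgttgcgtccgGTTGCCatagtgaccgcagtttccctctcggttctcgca
Dnai2, chr10:100258872-100259021, plus strand: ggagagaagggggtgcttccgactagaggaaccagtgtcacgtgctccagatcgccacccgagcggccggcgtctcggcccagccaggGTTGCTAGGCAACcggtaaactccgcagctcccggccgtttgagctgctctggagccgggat
Ift88, chr15:35688837-35688986, plus strand: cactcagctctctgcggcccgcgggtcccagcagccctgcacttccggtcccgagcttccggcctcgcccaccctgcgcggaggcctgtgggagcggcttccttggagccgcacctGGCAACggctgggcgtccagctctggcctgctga
Bbs5, chr3:74818490-74818639, plus strand: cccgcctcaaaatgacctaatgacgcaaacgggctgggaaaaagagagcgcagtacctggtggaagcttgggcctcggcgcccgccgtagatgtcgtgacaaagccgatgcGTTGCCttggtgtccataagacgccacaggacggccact
Dynlrb2, chr19:61428930-61429079, plus strand: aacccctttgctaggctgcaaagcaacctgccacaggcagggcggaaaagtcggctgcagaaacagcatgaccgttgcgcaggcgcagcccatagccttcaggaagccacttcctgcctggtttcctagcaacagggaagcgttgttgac
The half-site was present in Tekt4, which rose across regions, in Tekt2, whose regional ratios reached -0.47, and in Dnai2, Ift88 and Bbs5, whose ratios all lay between -0.17 and 0.16. The exact half-site was absent from the window of Dynlrb2, where looser forms were not searched. These letters describe the windows only.

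Results are given as log2(treated/saline) except where a level is named. A regional value is the mean of 2 arrays with their SD (n = 2 arrays), which includes any dye effect of the probe, and a value across regions carries the SE of a limma fit over 6 regions. Of a gene's probes the brightest was used. Median net signal per channel was 47.3 to 357 intensity units, 56.8% to 89.7% of spots were well above background, and the number of arrays limits the precision. Markers placed each region as labelled to different degrees. They were higher in their own region than in the other 5 by a median of 4.12 log2 units in ventral striatum (11 of 11 markers), 1.69 in midbrain (9 of 10) and 1.51 in cortex (7 of 8). The margins were 0.73 in hippocampus (7 of 10) and 0.42 in amygdala (6 of 10), and only 0.06 in hypothalamus (8 of 12), so the hypothalamic label rests on little here. Summed markers of thalamus and habenula were highest in hypothalamus, at 126600 to 132700 intensity units in saline channels of low-dose arrays. The midbrain gave 56340 to 62010 there, and the other regions at most 18540.

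**Figure D1:**
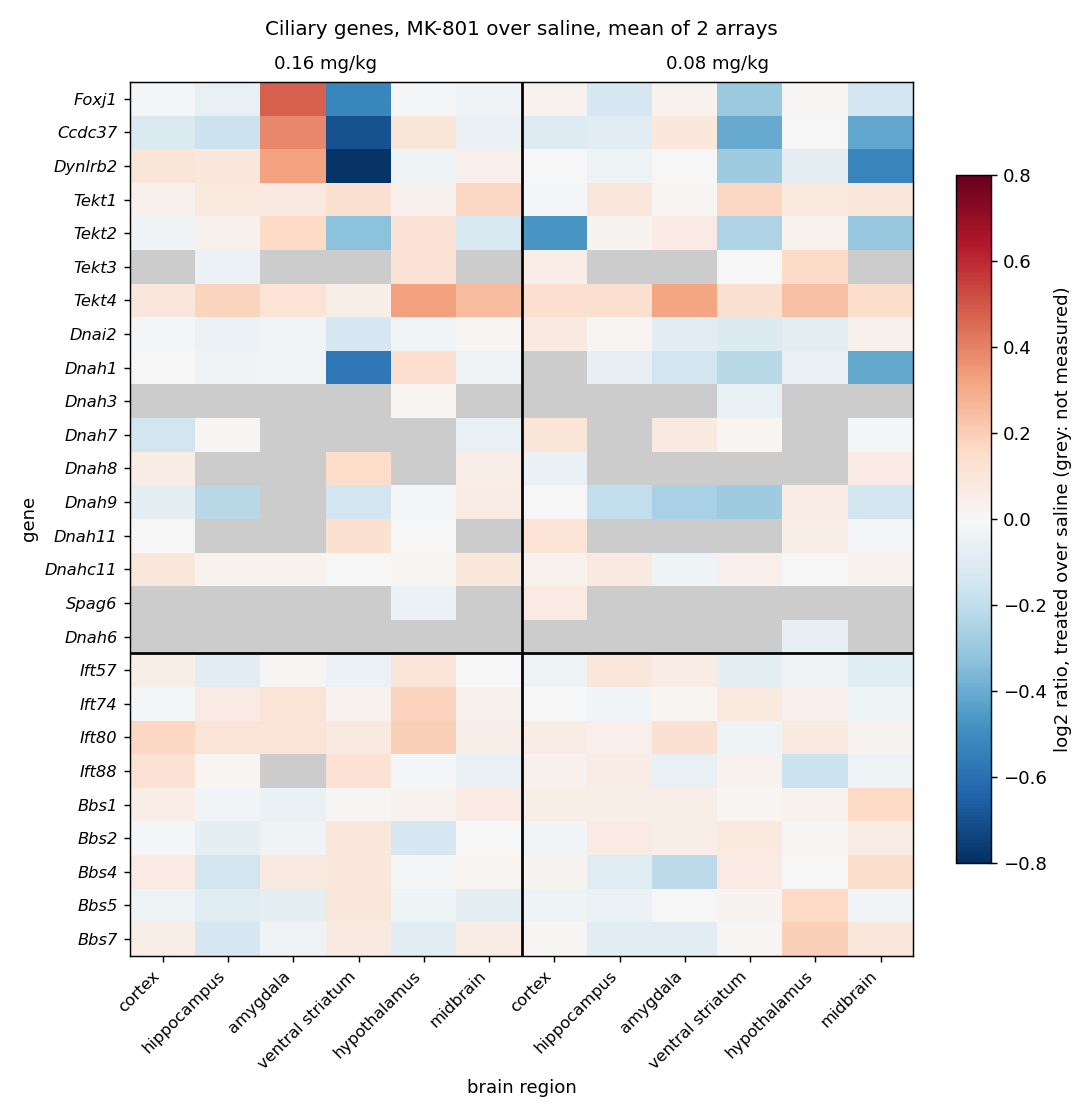
Mean log2 ratio of treated over saline RNA (colour) for the 26 genes (rows) in 6 regions at each dose (columns), with the 17 axonemal and motile cilia genes above the horizontal line and the 9 transport and BBSome genes below it, and grey where the probe was not measured. Blue squares gather in the ventral striatum, from -0.79 for Dynlrb2 at 0.16 mg/kg, red squares in the amygdala at 0.16 mg/kg, up to 0.48 for Foxj1, and the Tekt4 row is red throughout.

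Of these genes, Tekt4 alone changed across regions by the test used. Tekt4 encodes a tektin, one of the filament proteins that lie along the axonemal microtubules. Its probe lies at chr10:14726997-14727056 in the rn3 coordinates of the files. At the high dose its ratio was 0.11 ± 0.04 in amygdala, 0.09 ± 0.02 in cortex, 0.18 ± 0.05 in hippocampus, 0.33 ± 0.09 in hypothalamus, 0.25 ± 0.12 in midbrain and 0.05 ± 0.06 in ventral striatum. With 0.08 mg/kg it was 0.32 ± 0.08 in amygdala, 0.14 ± 0.04 in cortex, 0.13 ± 0.06 in hippocampus, 0.24 ± 0.10 in hypothalamus, 0.14 ± 0.01 in midbrain and 0.12 ± 0.02 in ventral striatum. All 24 arrays gave a ratio above 0, the lowest being 0.002 in the high-dose ventral striatum, and no dye orientation was favoured, with the Cy5 array higher in 7 of 12 pairs. The mean over regions was 0.17 ± 0.04 at the high dose (limma, adjusted p = 0.0336 over 16816 genes) and 0.18 ± 0.03 at the low dose (limma, adjusted p = 0.00637 over 18233 genes), a rise of under 1.5-fold in every region.

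Among all genes tested, 1.5% passed upward at the high dose, and 1.58% did at the low one. Of the ciliary genes 1 of 17 tested passed at the high dose (of 472 calls in either direction) and 1 of 18 at 0.08 mg/kg (of 580 calls), both upward. That is 1 gene, so the count carries little beside those shares. The doses did not differ detectably for Tekt4 (high minus low -0.01 ± 0.04, limma adjusted p = 0.939, higher in 3 of 6 regions), and none of the 16 genes tested for a dose difference passed the limma fit (1 had an unadjusted p under 0.05), against 2.19% of all genes. At the high dose the Tekt4 call was lost when any region but the ventral striatum was left out (adjusted p 0.0601 to 0.0944), with the scanner software's processed signals (0.0526) and with median centring (0.702). The low-dose call held in those settings.

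**Figure D2:**
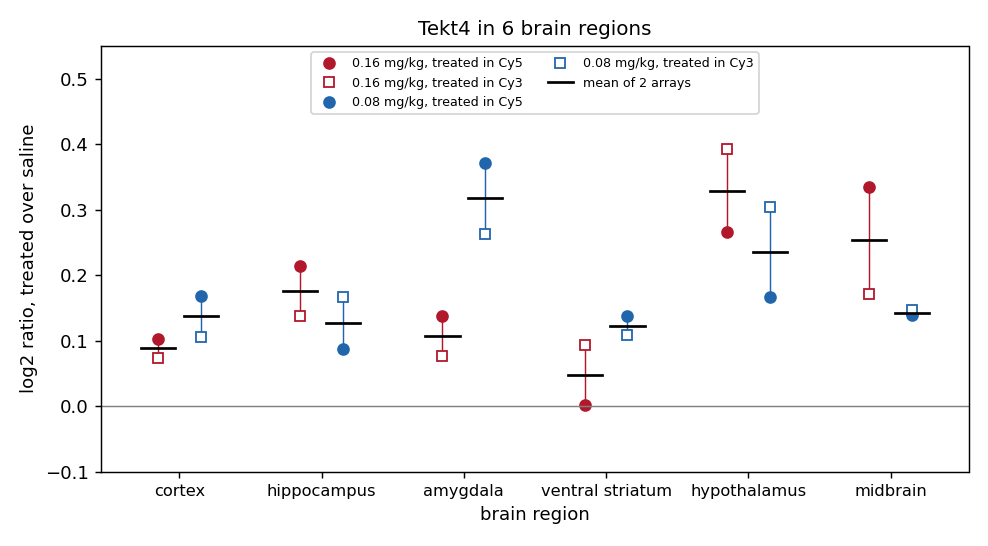
Log2 ratio of treated over saline RNA for Tekt4 (y axis) in 6 regions (x axis), with red for 0.16 mg/kg, blue for 0.08 mg/kg, filled circles for arrays with treated RNA in Cy5, open squares for Cy3 and black bars for the mean of the pair. All 24 arrays lie above 0, and the pairs range from 0.05 in the high-dose ventral striatum to 0.33 in the high-dose hypothalamus.

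Among the other tektins none passed, and the differences between tektins were not tested. Tekt1 was above 0 in 6 of 6 regions at the high dose, from 0.04 to 0.17, with a mean of 0.08 ± 0.03 that did not pass (limma, adjusted p = 0.152). It was 0.07 ± 0.03 with 0.08 mg/kg (adjusted p = 0.284 in the limma fit, 5 of 6 regions above 0). Tekt2 followed a regional pattern described below, with means of -0.03 ± 0.05 and -0.15 ± 0.06 that did not pass either (limma, adjusted p = 0.892 and 0.29). Tekt3 was measured in 5 of 12 combinations only, with ratios of -0.05 to 0.16.

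The larger ratios were regional. The ventral striatum at the high dose held the lowest values of Foxj1, Ccdc37, Dynlrb2 and Dnah1, and the amygdala at the high dose the highest values of Foxj1, Ccdc37, Dynlrb2 and Tekt2. With 2 arrays a combination there is no test within a region, and none of these genes passed across regions. Tekt2, Tekt1 and Ift80 are named here after their values were seen.

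Foxj1, the master regulator of motile ciliogenesis, has no genome position in the files. In the ventral striatum its arrays read -0.45 and -0.60 at the high dose (mean -0.52 ± 0.10, 1.44-fold lower) and -0.14 and -0.46 at the low dose (mean -0.30 ± 0.23). In the amygdala they read 0.62 and 0.34 at the high dose (mean 0.48 ± 0.20, 1.39-fold higher) and 0.26 and -0.21 at the low dose. The pairs of these regions do not overlap at the high dose, while at the low dose the amygdala pair straddles 0. In the other regions Foxj1 lay between -0.06 and -0.01 at the high dose and between -0.15 and 0.03 at the low dose. Its Cy5 array was the higher of the pair in 12 of 12 combinations, a dye difference that cancels in the pair's mean. Across regions Foxj1 did not pass (high -0.03 ± 0.09, adjusted p = 0.943; low -0.09 ± 0.04, adjusted p = 0.38, both from limma).

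Ccdc37, a coiled-coil protein now named Cfap100 that belongs to the axoneme, was probed at chr4:124906330-124906389. Its ventral striatal arrays read -0.64 and -0.75 at the high dose (mean -0.70 ± 0.08, 1.62-fold lower) and -0.36 and -0.45 at the low dose (mean -0.40 ± 0.07). The midbrain at the low dose gave -0.35 and -0.48 (mean -0.41 ± 0.10), and the amygdala at the high dose 0.42 and 0.35 (mean 0.39 ± 0.05). In each of these 4 combinations both arrays lay on the same side of 0 and close together. Its midbrain pair at the high dose straddled 0 (0.04 and -0.15), and in the hypothalamus it was 0.10 ± 0.02 and -0.001 ± 0.04.

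Dynlrb2, a roadblock light chain of dynein, was probed by a sequence that aligns across 775 bases at chr19:46551906-46552680. It had the lowest ratio of all, in the ventral striatum at the high dose, where its arrays read -0.65 and -0.92 (mean -0.79 ± 0.19, 1.72-fold lower). At the low dose that region gave -0.04 and -0.53 (mean -0.28 ± 0.35), and the midbrain -0.20 and -0.85 (mean -0.53 ± 0.46). The arrays of both low-dose pairs lay far apart, so these means are loosely fixed. In the high-dose amygdala they lay close together, at 0.33 and 0.31. As for Foxj1, the Cy5 array was the higher in 12 of 12 pairs.

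Tekt2, an axonemal tektin probed at chr5:145701422-145701632, read -0.15 and -0.50 in the high-dose ventral striatum and -0.14 and -0.36 in the low-dose one. It was 0.16 ± 0.08 in the high-dose amygdala and -0.30 ± 0.17 in the low-dose midbrain. Its lowest value was elsewhere, in the low-dose cortex, with arrays at -0.56 and -0.37 (mean -0.47 ± 0.14). There Foxj1 was 0.03 ± 0.02 and Ccdc37 -0.11 ± 0.02. In the same low-dose cortex 9 of 12 markers of meninges and fibroblasts, among them Ptgds, Igf2 and collagens, were over 1.5-fold lower (median -0.97), and their part in the Tekt2 value was not tested.

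Dnah1, an inner arm dynein heavy chain, had 2 probes that disagreed. The brighter, at chr16:6693878-6694418, read -0.44 and -0.71 in the high-dose ventral striatum (mean -0.57 ± 0.19) and -0.25 and -0.58 in the low-dose midbrain (mean -0.41 ± 0.23). The second, at chr16:6724493-6724552, gave 0.07 ± 0.27 and 0.06 ± 0.06 in the same combinations. Over the 11 combinations that both measured they had opposite signs in 7 and differed by up to 0.65, so the Dnah1 values belong to a probe and not to the gene.

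**Figure D3:**
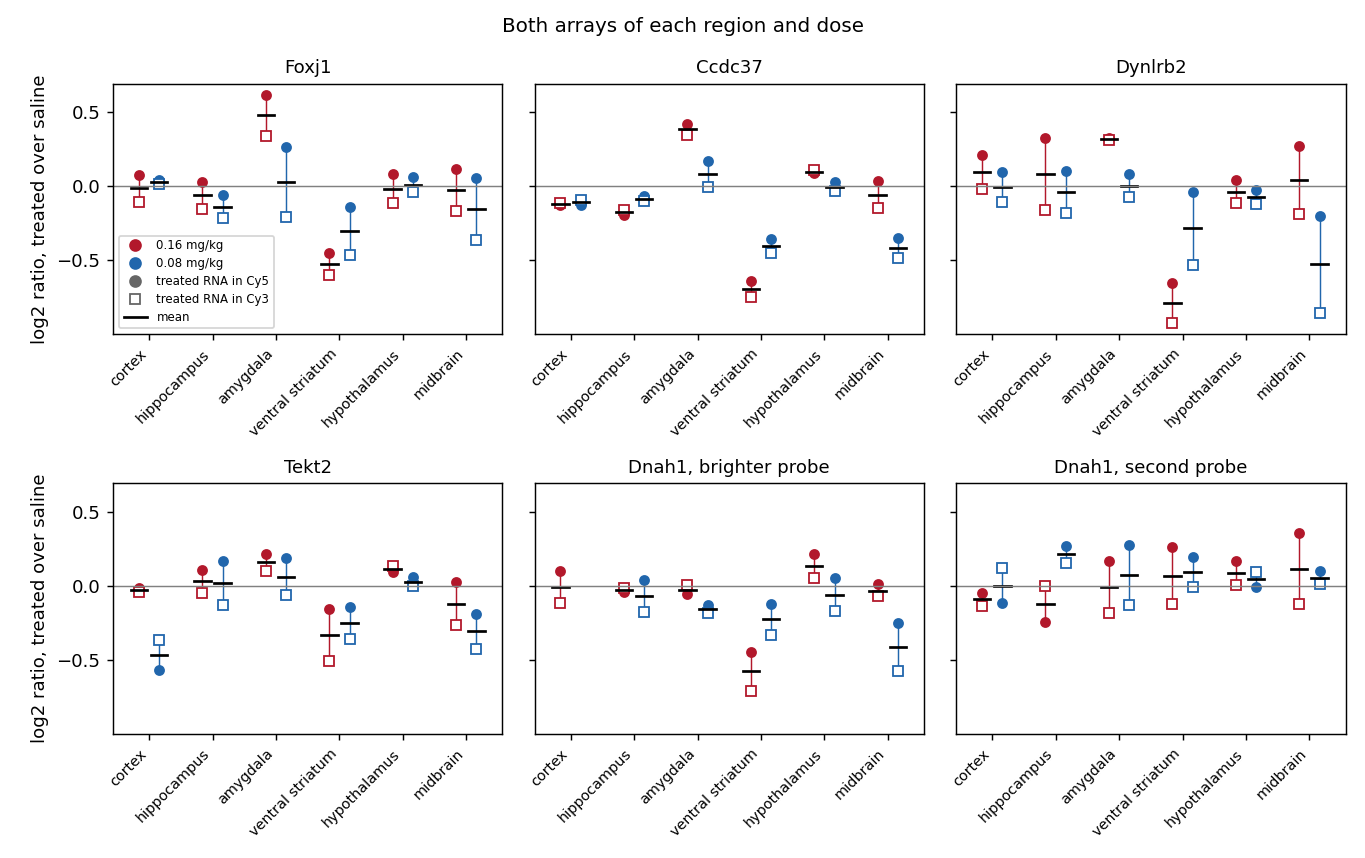
Log2 ratio of treated over saline RNA (y axis) in 6 regions (x axis) for Foxj1, Ccdc37, Dynlrb2, Tekt2 and both Dnah1 probes, with red for 0.16 mg/kg, blue for 0.08 mg/kg, filled circles for treated RNA in Cy5, open squares for Cy3 and black bars for the mean. In the high-dose ventral striatum both arrays lie below 0 for all but the second Dnah1 probe, and in the high-dose amygdala both lie above 0 for Foxj1, Ccdc37, Dynlrb2 and Tekt2.

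Only Dynlrb2 and Ccdc37 passed 1.5-fold (0.585 log2 units) with both arrays on the same side, and both did so once, as lower in the high-dose ventral striatum. In that combination 18 of 23742 genes (0.0758%) were lower by that much. Over all 12 combinations 2 of the 25 ciliary genes whose brightest probe was measured passed 1.5-fold at least once, against 1.08% of all genes. The count depends on the background correction. It was 7 values in 4 genes with the processed signals or the authors' deposited table and 5 values in 4 genes with a normexp offset of 16 in place of 50, all of them lower in treated RNA. The share of all genes was not counted in these settings, so the larger counts cannot be read as particular to the ciliary genes. The genes added in each setting were Tekt2 and Dnah1. With processed signals the high-dose ventral striatal value was -1.58 for Dnah1, -0.82 for Tekt2, -1.02 for Ccdc37, and in the low-dose cortex it was -1.07 for Tekt2. No value passed 2-fold with the offset of 50.

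Split by role after the values were seen, the axonemal and motile cilia genes held all values past 1.5-fold. Dynlrb2, a roadblock light chain of dynein, was placed with them, and the split depends on that choice. Placed under transport it would bring its -0.79 into that group. Counts of genes with both arrays on the same side were as follows. In the high-dose ventral striatum 5 of 12 measured axonemal genes were lower in both arrays (median -0.14), against 16.8% of all genes, and 3 of 12 were higher, against 17.5%. The 5 are Foxj1, Ccdc37, Dynlrb2, Tekt2 and Dnah1, which were picked out above for their low values there. The low dose gave 7 of 13 lower there (median -0.11, all genes 15.7%), with Dnai2 and Dnah9 added to the same 5, and 2 of 13 higher (all genes 15.6%). In the low-dose midbrain 5 of 13 were lower (median -0.02, all genes 14.7%) and 3 of 13 higher (all genes 15.7%). In the high-dose amygdala 6 of 9 were higher (median 0.11, all genes 20.5%) and 1 of 9 lower (all genes 18.1%). The 9 or 8 measured transport and BBSome genes had 0 of 9 lower and 4 of 9 higher in the high-dose ventral striatum and 1 of 9 lower and 4 of 9 higher in the low-dose one. They had 1 of 9 lower and 2 of 9 higher in the low-dose midbrain, and 2 of 8 lower and 4 of 8 higher in the high-dose amygdala, with medians between -0.01 and 0.07. These shares describe genes chosen with the values known and carry no test.

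The intraflagellar transport genes stayed close to 0, as did genes at large. Over all measured genes the SD within a combination was 0.09 to 0.12. Over the 107 measured regional values of the 9 transport and BBSome genes the range was -0.21 to 0.19 and the SD 0.08, against -0.79 to 0.48 and an SD of 0.19 over 145 values of the axonemal group. None of the 107 was past 0.25 in size, against 21 of the 145, which came from Ccdc37 and Dynlrb2 (4 each), Foxj1, Tekt2 and Tekt4 (3 each), and Dnah1 and Dnah9 (2 each). The cut-off of 0.25 was not set in advance, and the share of all genes past it was not counted. Dynlrb2 counts as axonemal here, and under transport its 4 values would fall in that group.

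Ift80, a subunit of the IFT-B particle that moves cargo towards the ciliary tip, came nearest to the threshold. It was above 0 in 6 of 6 regions at the high dose, from 0.05 to 0.19, with a mean of 0.11 ± 0.03 (limma, adjusted p = 0.0511), and it was 0.05 ± 0.03 at the low dose (adjusted p = 0.48 in the limma fit). Its arrays differed by dye in every pair. The Cy5 array was higher in 12 of 12, and the high-dose call came with scan day as a random block (adjusted p = 0.0357, limma) and in 3 more of 18 settings. The mean at the high dose was 0.25 from the Cy5 arrays alone and -0.03 from the Cy3 arrays alone. Ift74, another IFT-B subunit, showed the same dye pattern (12 of 12) and a high-dose mean of 0.07 ± 0.03 (limma, adjusted p = 0.35). Ift57 was 0.01 ± 0.03 and -0.01 ± 0.03 at the high and low dose. Ift88, needed for assembly of most cilia, had 2 probes with opposite signs in 3 of the 5 combinations both measured, and both lay between -0.17 and 0.12.

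The BBSome subunits Bbs1, Bbs2, Bbs4 and Bbs7 and Bbs5, which also belongs to that complex, had means between -0.04 and 0.01 at the high dose and between -0.01 and 0.06 at the low dose. Bbs1 was above 0 in 6 of 6 regions at the low dose, from 0.02 to 0.16, with a mean of 0.06 ± 0.03 that did not pass (limma, adjusted p = 0.351). None of the 5 passed at either dose, and none had an unadjusted limma p under 0.05.

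Most dynein heavy chains were too dim to follow. Dnah9, an outer arm heavy chain, had 2 member probes that disagreed. The brighter, at chr10:52530391-52530450, had its lowest ratio in the low-dose ventral striatum (-0.29 ± 0.19) and was -0.26 ± 0.03 in the low-dose amygdala, where both arrays agreed (-0.28 and -0.24). Its low-dose mean was -0.14 ± 0.04 (limma, adjusted p = 0.142), which passed with scan day as a random block, and in the high-dose amygdala 1 of its arrays was left out as an outlier spot, so it has no high-dose fit. The second probe, at chr10:52233404-52233463, lay between -0.09 and 0.18, and its Cy3 array was above 0 in 12 of 12 combinations while its Cy5 array was below 0 in 11 of 12, so its single arrays read the dye more than the dose.

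Dnai2, a dynein intermediate chain, lay between -0.13 and 0.07. The probes named Dnahc11 in the files lie on chromosome 10, whereas those named Dnah11 lie on chromosome 6, so the file's name was kept. They stayed between -0.04 and 0.09, differing by at most 0.07. Dnah7 had 6 member probes, measured in 2 to 7 combinations, with ratios between -0.15 and 0.10. Dnah11, Dnah8, Dnah3, Dnah6 and Spag6, a central apparatus protein, were measured in 6 or fewer combinations and lay between -0.07 and 0.15.

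The dimmest member probes stood at the edge of detection. Dnah6 was well above background in 6 of 48 channels and counted in 1 combination, with a median level of 6.37 log2 intensity units. The Dnah8 probe with 9 of 48 channels also counted in 1. Just outside, a Dnah5 probe was well above background in 11 of 48 channels (median 6.5) and a further Dnah6 probe in 8 of 48 (median 6.26), never in both arrays of a pair for the same RNA. In all, 19 probes were measured in all 12 combinations, 18 in 1 to 11 and 13 in none.

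In saline RNA the largest ranges between regions were those of Foxj1, Dnah9, Ccdc37, Dynlrb2, Tekt4, Dnah1, Tekt1 and Tekt2. Other axonemal genes, such as Dnai2 (1.96-fold) and Dnahc11 (1.93-fold), ranged less than Bbs5, Ift74, Ift80, Bbs2 and Ift57. For Foxj1 the level was lowest in cortex (8.62 ± 0.46 log2 intensity units, mean ± SD, n = 4 channels). It then rose through ventral striatum (10.11 ± 0.23), hippocampus (10.72 ± 0.04), amygdala (10.82 ± 0.16), midbrain (10.97 ± 0.24) and hypothalamus (11.62 ± 0.15), a range of 8.01-fold. The single channels of neighbours did not overlap in 3 of 5 steps, whereas amygdala overlapped with both hippocampus and midbrain.

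Tekt4 stood in the same order of regions, from 8.503 ± 0.146 in cortex to 10.74 ± 0.17 in hypothalamus (4.72-fold). Ccdc37 ranged from 7.31 ± 0.30 to 9.92 ± 0.23 (6.13-fold) and Dynlrb2 from 7.997 ± 0.193 to 10.29 ± 0.14 (4.91-fold), both lowest in cortex and highest in hypothalamus. Tekt2 did likewise over 2.55-fold and the brighter Dnah1 probe over 3.40-fold. Tekt1 was lowest in cortex and highest in amygdala (3.09-fold), with amygdala (8.34 ± 0.07) and hypothalamus (8.28 ± 0.03) overlapping.

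The brighter Dnah9 probe had another order, with 11.33 ± 0.04 in amygdala (3 channels), 10.73 ± 0.27 in hippocampus and 8.61 ± 0.50 in ventral striatum, while the second Dnah9 probe ranged over 1.26-fold only. The ranges of the transport and BBSome genes ran from 1.33-fold for Bbs1 to 2.31-fold for Bbs5 over their brightest probes, and apart from 1 step for Ift57 no neighbouring regions were apart in all channels. Fewer ciliated cells and less RNA per cell cannot be told apart in these tissue extracts. All arrays of a region lay on 1 slide, so slide and region cannot be told apart either. The hypothalamic extracts also held the high thalamus and habenula signal given above, and its part in these levels was not tested.

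**Figure D4:**
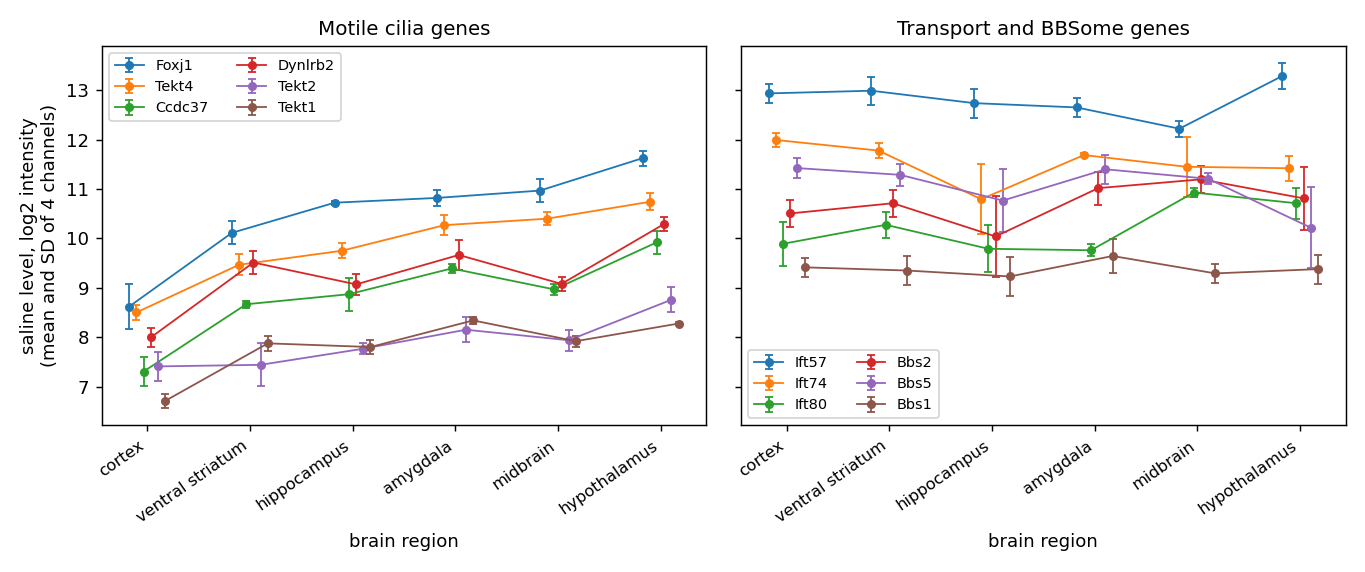
Level in saline RNA (log2 intensity, mean and SD of 4 channels) by region, for 6 motile cilia genes (left) and 6 transport and BBSome genes (right); heights of different probes are not comparable. On the left every gene is lowest in cortex and 5 of 6 are highest in hypothalamus, with Foxj1 at 8.62 and 11.62, whereas the genes on the right follow no common order.

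Marker genes of ventricular tissue gave the following values beside the regional ratios. In the high-dose amygdala 11 of 15 choroid plexus markers were over 1.5-fold higher (median 0.89), and the summed signal of the list was 122300 to 135600 in treated against 45270 to 61480 intensity units in saline channels. In the ventral striatum the sums were 6638 to 9049 against 6623 to 7887 at the high dose, with Ttr (transthyretin) the one marker past 1.5-fold (0.78). With 0.08 mg/kg they were 6168 to 6272 against 5686 to 6238. In hippocampus and hypothalamus at the high dose 3 choroid plexus markers (Ttr, Sostdc1 and Kcnj13) were over 1.5-fold lower, where Foxj1 was -0.06 and -0.02. At the low dose the hippocampus had 3 lower (Ttr, Otx2 and Sostdc1), with Foxj1 at -0.14. In the low-dose midbrain, where Ccdc37, Dynlrb2, Tekt2 and Dnah1 were lower, Ttr was the one of 9 choroid plexus markers past 1.5-fold, at -0.80 (list median -0.09). The sums were 4950 to 14250 against 5462 to 13410. Enpp2 of that list had no mean of both arrays there, as outlier spots were left out. The sums of the 2 arrays may therefore cover different genes.

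Of 12 markers of ependymal cells outside the cilium measured in the ventral striatum at the high dose none was past 1.5-fold (median -0.03; sums 54880 to 64700 against 56580 to 60020), and none of 13 was at the low dose (median -0.005; 56870 to 57110 against 54160 to 57880). The median was -0.04 in the high-dose amygdala and -0.09 in the low-dose midbrain, none past 1.5-fold. Aqp4, Gja1 and S100b of this list are also on the astrocyte list, so its sums do not read ependymal cells alone. In saline channels of high-dose arrays the sums were 45640 to 56820 in cortex and 31870 to 68850 in hypothalamus. On low-dose arrays they were 48030 to 48540 and 56220 to 69630. Over the saline channels of both doses together Foxj1 differed 8.01-fold between these 2 regions. Across regions, in the fit that called Tekt4 at the low dose, 3 of 12 of these markers were called. Tm4sf1 fell (-0.36 ± 0.03, limma adjusted p = 2.49e-05), as did Cd24 (-0.14 ± 0.03, limma adjusted p = 0.029), and S100b, which astrocytes also express, rose (0.14 ± 0.03, limma adjusted p = 0.00952). At the high dose none of 11 was called by limma, 3 of them with an unadjusted p under 0.05.

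Some markers of other tissue moved in the same combinations. In the low-dose ventral striatum the haemoglobin genes Hbb (-1.11) and Hba-a3 (-0.83) were lower, with a median of -0.42 over 6 blood cell markers and sums of 46950 to 65610 against 85520 to 112600. Across regions 3 of 5 blood cell markers fell at the low dose (median -0.31) and 3 of 4 rose at the high dose (median 0.31). In the high-dose amygdala Hbb was 0.65, the 1 of 4 blood cell markers past 1.5-fold (median 0.365). The hypothalamic neuropeptide genes Avp (-1.91) and Oxt (-0.98) were lower there, the 2 of 8 hypothalamus markers past 1.5-fold (median -0.05). In the low-dose midbrain Hba-a3 was -0.76, the 1 of 6 blood cell markers past 1.5-fold (median -0.35). Prkcd, a marker shared by the thalamus and amygdala lists, was -1.17, and no other marker of either list passed 1.5-fold there. The list medians were -0.15 over 12 thalamus markers and 0.07 over 9 amygdala markers. Tph2 and Slc6a4 of serotonin neurons were over 1.5-fold higher, 2 of 9 midbrain markers (median 0.13). The part of any of these cell populations in the ciliary values was not tested. The cortex was scanned on the same day as the ventral striatum. There Foxj1 was -0.01 ± 0.13 and 0.03 ± 0.02 at the high and low dose, and Tekt2 was -0.03 ± 0.02 and -0.47 ± 0.14; the part of scan day was not tested.

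Related genes outside the list gave values on both sides of this picture. Under current names 24 further genes of the same families were found behind older symbols, 13 of them axonemal and 11 of transport or the BBSome. In the high-dose ventral striatum 7 of 10 measured axonemal ones were lower in both arrays (median -0.14) and in the low-dose one 6 of 10 (median -0.10), with 5 of 10 in the low-dose midbrain (median -0.08). In the high-dose amygdala 6 of 10 were higher (median 0.08). The shares of all genes are those given above for each combination (16.8%, 15.7%, 14.7% and 20.5%). Rsph4a, a radial spoke head protein, was -0.36 ± 0.18 and -0.27 ± 0.21 in the ventral striatum at the high and low dose and 0.48 ± 0.15 in the high-dose amygdala. Of the 11 transport genes 3 were lower and 2 higher in the high-dose ventral striatum, 1 lower and 6 higher in the low-dose one, and 2 lower and 5 higher in the high-dose amygdala. Across regions 19 of the 24 were tested at each dose, and Ift81 rose at the low dose (1 of 19, all genes 1.58%) and was lower in the high minus low comparison (1 of 18, all genes 2.19%), with no other call.

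Of 64 other axonemal and motile cilia genes on the array, 36 were tested at the high dose and 1 rose (Efhc2, 0.15 ± 0.03, limma adjusted p = 0.0286), with a list median of -0.01 against -0.001 over all genes; 1.5% of all genes rose. At the low dose 42 were tested, 1 rose (Cfap206, 0.15 ± 0.04, limma adjusted p = 0.0424) and 3 fell (Gas8 -0.16 ± 0.03, Morn5 -0.22 ± 0.03 and Kif19 -0.17 ± 0.03, limma adjusted p = 0.00479, 0.00172 and 0.0157), while 1.58% of all genes rose and 1.6% fell. Gas8, a subunit of the nexin-dynein regulatory complex, and Morn5 were also lower at the low than at the high dose (limma, adjusted p = 0.0204 and 0.00265). None of 42 transport, kinesin and transition zone partners was called by limma at the high dose (34 tested, 2 with an unadjusted p under 0.05) or at the low dose (35 tested, 5 such). Nor was any of 10 ciliogenesis regulators (3 tested; 1 and 0 such) or of 12 primary cilium signalling proteins of neurons (9 tested; 1 and 0 such).

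The genes most like the ciliary genes over the 12 regional ratios depended on the profile. With the median over the 16 genes measured throughout, the highest Pearson r among 15434 other genes were 0.89 for Rnf150, 0.86 for Adcy6, 0.85 for Tmem123 and 0.85 for Med23 beside 6 unnamed transcripts, none of them on a cilia list. Against Foxj1 alone, a profile chosen after the values were seen, Ccdc37 (r = 0.93) ranked 2 and Dynlrb2 (r = 0.86) ranked 13 of 15449 genes, while Tekt2 (r = 0.57) ranked 682 and Tekt4 (r = 0.26) ranked 3664. Outside the list the highest named genes were Cfap126 (0.92), Cfap144 (0.89), Spef2 (0.89), Dnah12 (0.87), Igfbpl1 (0.87) and Efcab10 (0.86). Cfap144, a cilia and flagella associated protein, was -0.89 ± 0.23 in the high-dose ventral striatum, -0.60 ± 0.31 in the low-dose one and 0.50 ± 0.16 in the high-dose amygdala. These correlations are over 12 points that share saline RNA and arrays, and they describe these libraries only.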

How the data were processed

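RNA of 6 brain regions was measured on 24 two-colour Agilent arrays. The deposited scanner files hold mean spot intensity and local background per channel, per the file headers, made with Agilent Feature Extraction 9.5.3.1, per the submitters' processing notes. The authors deposited a value table of log10 ratios, treated over saline; 100% of its values lay within 0.01 of the ratio of processed signals in the deposited scanner files. It was used as an alternative after conversion to log2, and the processed log2 ratio from the deposited signals as another. All its columns belonged to a sample (0 without one).

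The normexp method (offset 50) removed background and loess within each array normalised the log2 ratios (limma 3.58.1 in R 4.3.3). For saline levels, single channels were taken after Aquantile scaling. Outlier spots were left out, swapped arrays turned, spots of a probe averaged, and the brightest probe taken per gene. Gene names were updated through RefSeq (GRCr8), and probe coordinates are rn3 as in the files; exons and UTRs are not stated, as no rn3 annotation was used here.

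Array pairs were averaged per region, and genes measured in all 6 regions were tested against 0 with limma and Benjamini-Hochberg adjustment over all genes at 0.05. The fit was tested on simulated data. Genes were named if they passed a comparison or 1.5-fold in a region, had several member probes, or had the highest or lowest mean; Foxj1 was always named, and others are marked as chosen on their values. Members, lists and tests were chosen with earlier results of these data known. The alternatives were other background corrections, centring, filters, probe rules, dye and scan-day terms, and leaving out arrays or regions.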

Additional observations from a re-analysis of the deposited data

Results flagged for a closer look

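The gap test used here flags about 1 in 20 sets of independent normal values. The sets here span different regions and share genes and saline RNA, so that rate is no yardstick for them. The share of all genes flagged was not counted either. Among the values of 6 regions, 5 of 35 sets held a region far from the rest. At the high dose these were Dynlrb2 in ventral striatum (-0.785, the others -0.04 to 0.32), Dnah1 there (-0.574, the others -0.03 to 0.14, by the brighter of its 2 disagreeing probes) and Bbs5 there (0.093, the others -0.10 to -0.03). At the low dose they were Bbs1 in midbrain (0.16, the others 0.02 to 0.06) and Bbs5 in hypothalamus (0.157, the others -0.05 to 0.02).

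Among 36 sets of 4 saline channels, 4 held a channel apart from the other 3. These were Foxj1 in amygdala (10.581 against 10.89 to 10.91 log2 intensity units), Tekt2 in amygdala (7.778 against 8.24 to 8.34), Tekt1 in midbrain (8.088 against 7.86 to 7.87) and Tekt4 in hypothalamus (10.995 against 10.62 to 10.68).

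At the high dose, both arrays lay below 0 in ventral striatum and above 0 in amygdala for Dynlrb2 (amygdala minus ventral striatum 1.105), Ccdc37 (1.08), Foxj1 (1.002) and Tekt2 (0.487). The difference between these regions was not tested.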

How the results depend on the processing

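The dye orientation is the one number shared by all groups. A fit of single arrays with a dye term and region as a random block gave 652 genes (high), 868 (low) and 431 (high minus low), against 472, 580 and 338. Ift80 passed there at the high dose (limma, adjusted p = 0.0346). The estimated correlation within a region was -0.004 (high) and 0.0005 (low), so the arrays of a pair counted almost as independent samples in that fit. The low-dose Tekt4 value stayed between 0.15 and 0.21 and past the threshold in all 18 alternatives that used more than 1 scan day, and the high-dose one, between 0.13 and 0.19, in 11 of 18. Median centring gave 142 genes at the high dose and 104 for high minus low. Scan day as a random block gave 1243 at the low dose, with an estimated correlation of -0.299. It changed calls of 2 ciliary genes, as Dnah9 passed at the low dose and Ift80 at the high dose (0.0357). Within the 3 scan days (2 regions each) the counts were 288, 193 and 90 (high), 138, 59 and 157 (low), and 145, 56 and 67 (high minus low), and no ciliary gene passed in any. Leaving out an array orientation or a region gave 280 to 6729, 374 to 7423 and 144 to 296 genes; the counts from 5847 up arose with 1 orientation alone, where dye effects do not cancel. In these leave-outs Ift80 at the high dose ranged from -0.026 to 0.25, and Tekt4 high minus low from -0.038 to 0.026; the latter was 0.072 within the scan day of hippocampus and hypothalamus.

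The count of regional values of members past 1.5-fold, 2, was 7 with processed signals and with the deposited table, 5 with offset 16, 11 at 1.3-fold, 0 at 2-fold and 3 to 5 with single arrays. A gene can add several values to this count, and the share of all genes was not counted in these alternatives. The hypothalamus minus cortex difference in saline was 2.68 and 3.32 for Foxj1 on high-dose and low-dose arrays alone, and with offset 16 it was 2.95 for Ccdc37 and 2.38 for Dnah1. Each value rests on 2 arrays; dim probes are compressed by the offset, and a missing call does not show that a gene did not change.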
